A study of Solanum tuberosum with 8 samples.

Results

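The tubers described here came from 2 bulks of low starch potato plants that differed in the transcript level of AGPaseS-a, a locus for the large subunit of ADP-glucose pyrophosphorylase (AGPase). Bulk L1 joined low starch with high AGPaseS-a expression and bulk L2 joined low starch with low AGPaseS-a expression. The 4 libraries of these bulks, taken by their labels, were 4 of the 8 RNA-seq libraries of the series, with 2 libraries (A and B) in each of 4 bulks. The other bulks, H1 with high and H2 with low AGPaseS-a expression, were of high starch content and serve below as a second look at the same contrast in libraries that the L1/L2 comparison does not use.

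All plants were untreated F1 siblings of the diploid hybrid population 12-3, grown in pots under a tent, and the tubers were fully developed and harvested. Each bulk pooled equal amounts of total RNA from the tubers of 6 plants. Each library is thus a mean over genotypes. The study calls A and B biological replicates, and the sources read here leave unstated if both were drawn from 1 set of plants. The p-values measure only the spread between these libraries. The low starch libraries held 31943185 and 27543719 counts in L1, against 31554975 and 30395042 counts in L2, and the H libraries held between 15293539 and 27545656 counts.

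AGPase makes ADP-glucose, the sugar donor from which starch synthases build starch granules in the plastids of the tuber, and it is assembled from large and small subunits. Potato tubers store protein mainly as patatin and as proteinase inhibitors, while 11S or 12S globulins such as cruciferin are better known from seeds. The RT-qPCR primers that the study lists for AGPaseS-a are shown because this amplicon names the classes, and those for PGCRURSE5 and 9-DES because both genes lie far apart between L1 and L2 in the libraries. All are given 5′ to 3′.
AGPaseS-a forward: tcatgatgggagcagactcctacc
AGPaseS-a reverse: ctttcctatctttgcgttcttgt
PGCRURSE5 forward: actcaattcctccttcatcag
PGCRURSE5 reverse: ttggaatgtggtgctgtact
9-DES forward: tcgcccaccagtacctttac
9-DES reverse: ccaaatctttgcctggacat

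No annotated AGPase gene separated the classes in the direction of their names. Levels are given as CPM, counts divided by library size after scaling with 1 set of TMM factors over all 8 libraries and not by gene length, and the counts were not matched to the AGPaseS-a amplicon, so that the label itself was not checked at that locus. AGPS1, annotated as AGPase large subunit 1-like, had 2253 and 2037 CPM in L1, against 2109.8 and 1460.1 CPM in L2. These ranges overlapped, and the log2 difference of L1 minus L2 was 0.27 ± 0.24 (SE, n = 2 each; 95% interval -0.33 to 0.86). LOC102577790, the AGPase small subunit, had 1116 and 1302 CPM in L1, against 2094 and 1065 CPM in L2, which also overlapped. LOC102600909, a further large subunit gene, had 42.7 and 43.7 CPM in L1, against 48 and 48.7 CPM in L2. Its groups did not overlap, with L2 above L1, and its log2 difference was -0.16 ± 0.14 (95% interval -0.50 to 0.18). The remaining 2 annotated AGPase genes had at most 3 counts in any library of L1 and L2 and were not tested. The α-tubulin genes, the reference transcript of the study's RT-qPCR, overlapped between L1 and L2 in all 3 tested members.

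In the test with edgeR on the 4 libraries, 0 of 19671 genes were called at a false discovery rate (FDR) under 0.05 with a log2 fold change of 1.5 or more in either direction, which is 0% of the genes tested. An unadjusted p under 0.05 was found for 1088 genes (5.53%), 532 of them higher in L1 and 556 higher in L2. This share is near the 0.05 that such a limit passes where no gene differs. Of the 1088, 250 (1.27% of all tested) also had a log2 fold change of at least 1.5, 104 (0.529%) higher in L1 and 146 (0.742%) higher in L2. DESeq2 on the same counts called 71 genes at the same thresholds, 44 higher in L1 (0.223% of genes with an adjusted p) and 27 higher in L2 (0.137%). When 1 low starch library was left out, DESeq2 called 75 to 110 genes, of which 28 to 32 were among the 71, and all 71 kept their sign. All 71 had an edgeR p under 0.05 and non-overlapping bulks, but non-overlap alone was found for 6909 tested genes (35.1%). The genes below are described as called by DESeq2 where that holds, and none of them passed the edgeR threshold.

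**Figure D1:**
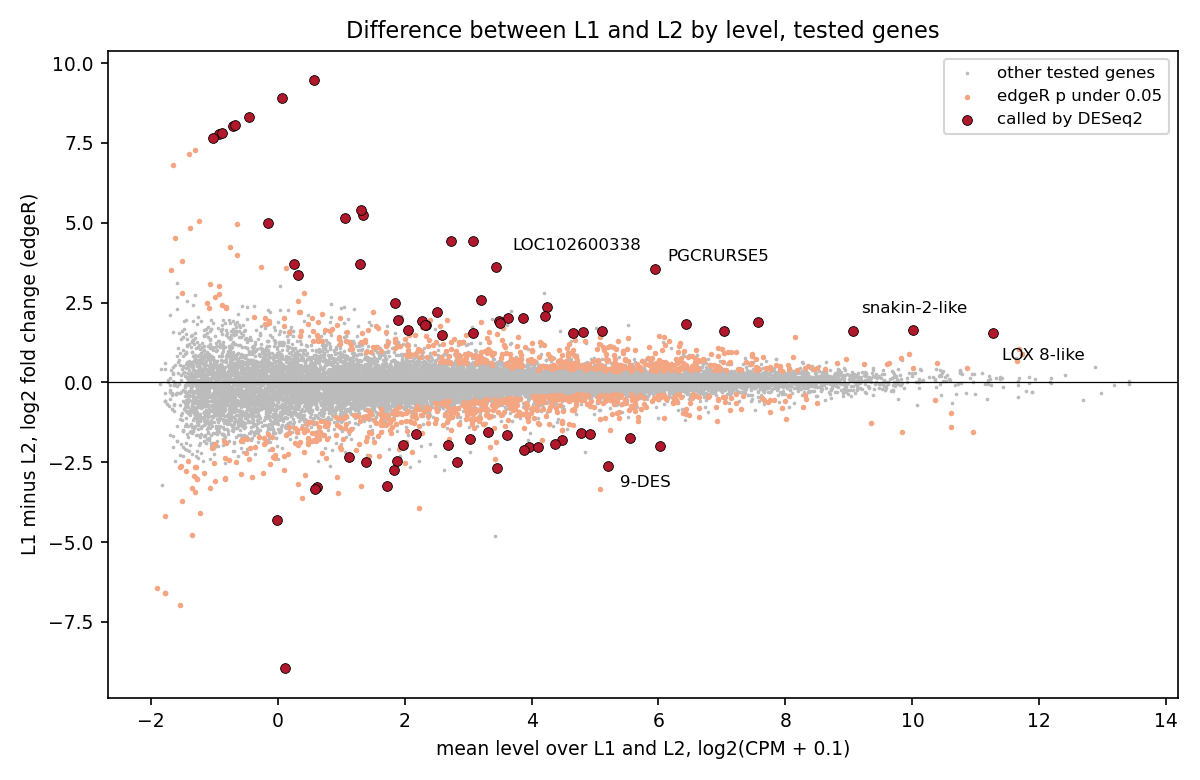
Log2 fold change of L1 minus L2 (edgeR, vertical axis) against the mean level over both bulks, log2(CPM + 0.1), for the 19671 tested genes, with the 1088 genes at p under 0.05 and the 71 genes called by DESeq2 coloured. The genes called by DESeq2 stand at low and high levels alike, and the uppermost group of points holds genes with 0 counts in both L2 libraries, whose fitted values are no measure of size.

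The genes with the lowest edgeR p were PGCRURSE5 and LOC102600338, whose mean CPM was 11.7-fold and 12.3-fold higher in L1. LOC102601158, the cruciferin PGCRURSE5-like gene for a 12S globulin storage protein, had 96.4 and 130.1 CPM in L1, against 9.6 and 9.79 CPM in L2. The L2 libraries nearly coincided and every L1 library lay far above them. The log2 difference was 3.55 ± 0.21 with an edgeR adjusted p of 0.0569, which missed the threshold and ranged from 0.00529 to 1 over the edgeR alternatives, while DESeq2 gave 2.21e-44. Without L1 replicate A the edgeR adjusted p was 0.039 and the log2 difference 3.76. LOC102600338, an uncharacterized gene, had 21.2 and 18.6 CPM in L1, against 1.66 and 1.58 CPM in L2, with a log2 difference of 3.62 ± 0.23. Its edgeR adjusted p was 0.0569, with 0.00884 to 0.415 over the edgeR alternatives, and 2.2e-26 in DESeq2.

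In the high starch bulks the values of the pair were as follows. LOC102600338 had 12.2 and 18.8 CPM in H1, against 2.13 and 1.75 CPM in H2, so that high AGPaseS-a bulks lay above low ones at both starch levels. LOC102601158 (PGCRURSE5) had 9.02 and 24.5 CPM in H1, against 55.7 and 12.3 CPM in H2, which overlapped and had the opposite order of means. The difference between the low starch and the high starch contrast was 4.55 ± 0.98 for PGCRURSE5, with an edgeR adjusted p of 1.0, against 0.0051 in DESeq2. Without H2 replicate A, the H1 minus H2 value of PGCRURSE5 was 0.45 in place of -1.01.

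**Figure D2:**
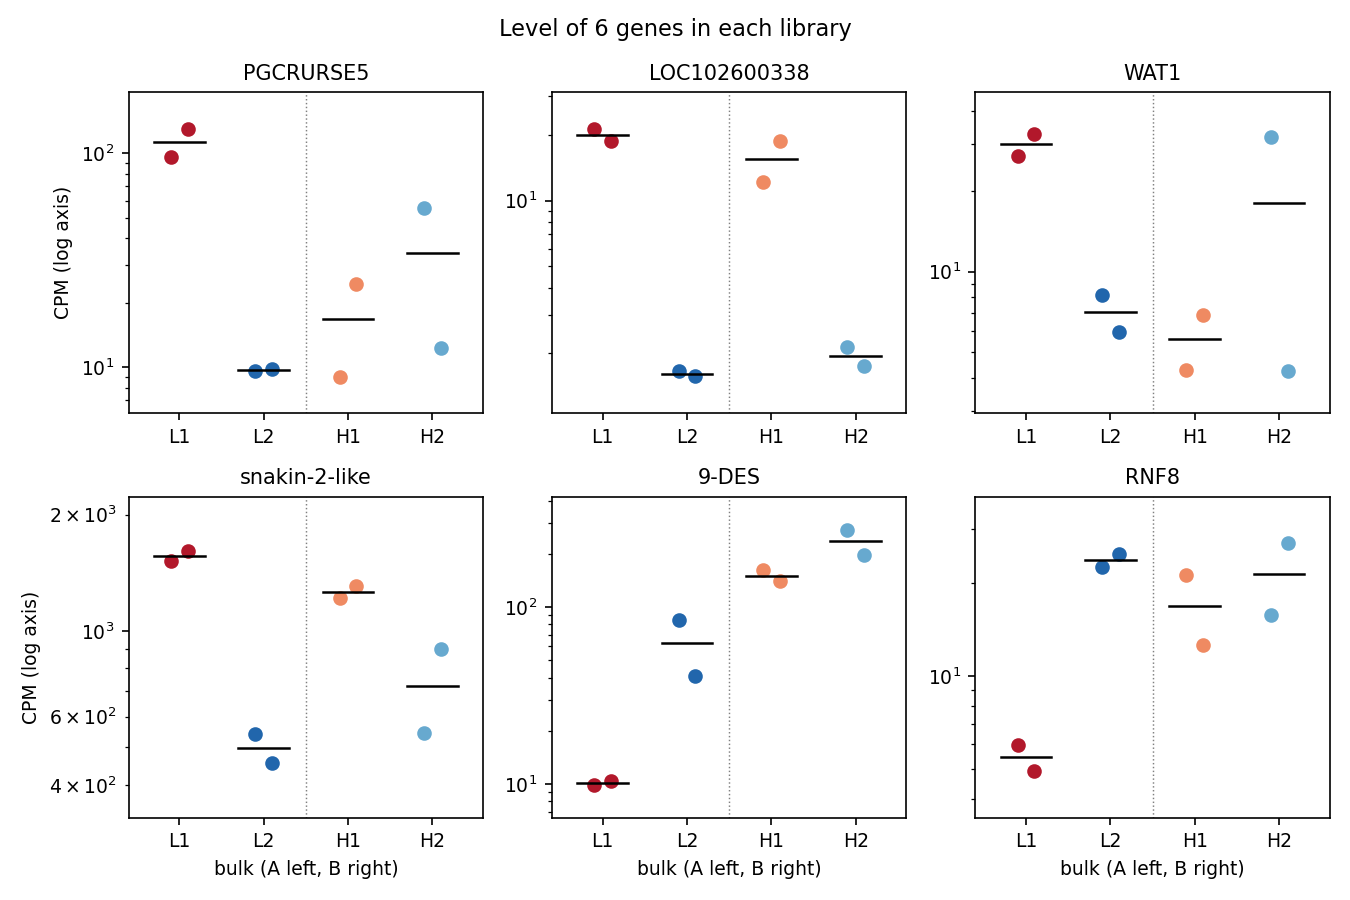
CPM on a log axis of 6 genes in each library (points) with bulk means (bars), L1 and L2 at the left and H1 and H2 at the right of each panel. The L1 and L2 points separate for all 6 genes, while for PGCRURSE5, WAT1 and RNF8 the H1 and H2 points overlap.

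Among the 15 candidate genes of the study, 6 had an edgeR p under 0.05, 3 in each direction, and 4 were called by DESeq2, beside 5.53% and 0.36% of all genes. The study picked these genes by comparing high with low starch bulks, partly on the same L1 and L2 libraries, so their share is no independent evidence. LOC107057670 (WAT1), whose relative in Arabidopsis exports auxin from the vacuole, had 27.2 and 32.8 CPM in L1, against 8.16 and 5.94 CPM in L2, a log2 difference of 2.09 ± 0.23. LOC102594285, an ECERIFERUM 3-like gene of a family that acts in Arabidopsis in the synthesis of wax alkanes, had 20.4 and 14.6 CPM in L1, against 4.91 and 4.28 CPM in L2. Both were higher in each L1 library than in each L2 library and were called by DESeq2.

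LOC102588225 (9-DES), the 9-divinyl ether synthase that turns lipoxygenase products into divinyl ethers, had the opposite direction. It had 9.9 and 10.4 CPM in L1, against 85.1 and 40.9 CPM in L2. Its log2 difference was -2.63 ± 0.37, with an edgeR adjusted p of 0.443 (0.0976 to 1 over the edgeR alternatives), and DESeq2 called it. The high starch libraries lay above both low starch bulks, with 161 and 139.7 CPM in H1 and 275 and 197 CPM in H2. LOC107059465 (Pat3-k1), an inactive patatin, had 578 and 1143 CPM in L1, against 2622 and 1921 CPM in L2, at an unadjusted edgeR p of 0.00985, and LOC102598865 (Unch865) had 2.73 and 3.64 CPM in L1, against 7.3 and 8.16 CPM in L2. The other 9 candidates had an unadjusted p above 0.05. Of these, LOC102591902 (SWEET12-like), of a family of sugar exporters, varied widely between A and B, with 33.4 and 4.18 CPM in L1, against 7.45 and 3.4 CPM in L2, and its direction turned without L1 replicate A (log2 difference of -0.37).

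Genes were also read by scaffold of the genome assembly SolTub_3.0, whose scaffolds are not placed on chromosomes here. Of 254 scaffolds with at least 20 tested genes, 12 had at least 20% of their genes at p under 0.05, against 5.53% of all genes. These 12 scaffolds were picked by the same p-values, so their shares are a description. They carried 756 of the tested genes (3.84%), 226 of the genes at p under 0.05 (20.8%) and 25 of the 71 genes called by DESeq2 (35.2%). Most of the genes at p under 0.05 (862) and most of the called genes (46) lay elsewhere. The share at p under 0.05 was 29.9% on the 12 scaffolds and 4.56% elsewhere. The share elsewhere was no higher than the 0.05 that this limit passes where no gene differs. The scaffold just inside the limit was NW_006239449.1 with 22.2% and the one just outside was NW_006239069.1 with 19.0%. In the fit of all 8 libraries, the shares of the single scaffolds among the 12 ran from 4.35% (NW_006238970.1) to 25.9% (NW_006239476.1). With the scaffolds kept, the share on them lay between 18.7% and 25.3% when 1 low starch library was left out, and at 16.1% in the fit of all 8 libraries, against 1.12% elsewhere in that fit.

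**Figure D3:**
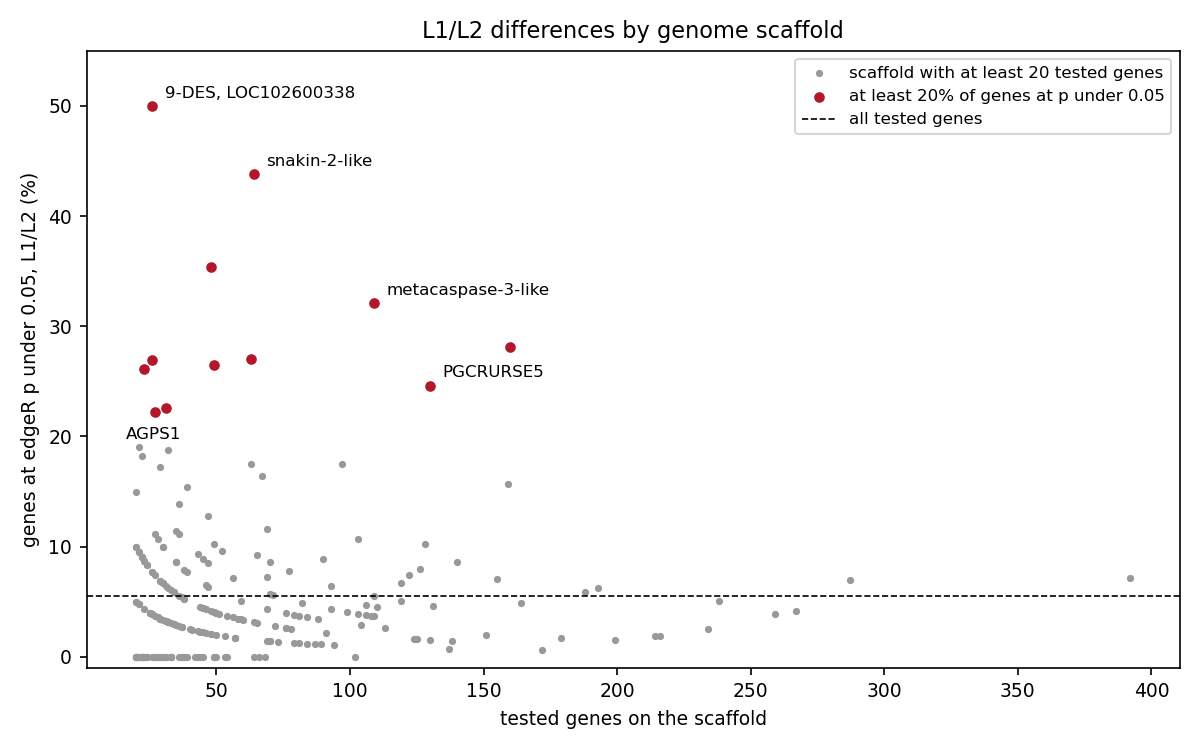
Percentage of genes at an edgeR p under 0.05 between L1 and L2 (vertical axis) against the number of tested genes on each of the 254 scaffolds with at least 20, the dashed line marking 5.53% over all tested genes. The 12 scaffolds in red reach 22.2% to 50%, and 5 of them are labelled with a gene they carry.

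Both 9-DES and LOC102600338 lay on NW_006239476.1, where 13 of 26 tested genes (50%) had p under 0.05, 3 higher in L1 and 10 higher in L2. LOC102588225 starts at base 196 of this scaffold and LOC102600338 spans bases 289749 to 292472. Of the other genes there, 3 were chosen after their values were seen. LOC102594316, a RING finger protein 5-like gene, had 23 and 16.7 CPM in L1, against 7.36 and 7.37 CPM in L2. LOC102599356, a polyol transporter, had 52.6 and 61.3 CPM in L1, against 112 and 109 CPM in L2. LOC102603606, which encodes a BURP domain protein, had 0.314 and 0.0343 CPM in L1, against 1.29 and 3.15 CPM in L2. All 13 genes at p under 0.05 on this scaffold had the same sign in H1 minus H2, where 702 of 1083 (64.8%) did over all genes at this p. The study mapped its markers for 9-DES, PGCRURSE5 and AGPaseS-a to chromosome I, and AGPaseS-a expression is the trait that sorted L1 from L2. The markers of PGCRURSE5 and AGPaseS-a lay in regions linked to the transcript level of their own gene, and that of 9-DES did not. Whether this shared chromosome bears on the differences between L1 and L2 was not tested.

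On NW_006239226.1, 28 of 64 tested genes (43.8%) had p under 0.05, 21 of them higher in L1, and all 5 genes called by DESeq2 there were higher in L1. LOC102582131, a snakin-2-like gene of a family of antimicrobial peptides, had 1519 and 1609 CPM in L1, against 542 and 455 CPM in L2. Its log2 difference was 1.65 ± 0.19. LOC102578155, a putative ATP-dependent RNA helicase of the splicing machinery, had 195 and 199 CPM in L1, against 69 and 60.8 CPM in L2. Both were separated by far more than the gap between A and B. LOC102600864, an auxin-induced protein 15A-like gene, had 14 and 39 counts in L1 and 0 in both L2 libraries, and 2 genes without a product name, LOC107063081 and LOC102580013, had 40 and 37 counts and 103 and 68 counts in L1 against 0 in both L2 libraries. Set against a floor of 3 counts per L2 library, these 3 genes were at least 9.71-fold, 13.8-fold and 30.4-fold higher in L1.

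Other genes of that scaffold, chosen after their values were seen, showed the same order at smaller size. LOC102590933, thaumatin-like protein 1b, had 36.5 and 36.7 CPM in L1, against 16.9 and 12.2 CPM in L2. LOC102593529, the subtilisin-like protease SBT1.6, had 206 and 165 CPM in L1, against 97 and 97.4 CPM in L2. In the high starch bulks LOC102593529 had 164 and 177 CPM in H1, against 88.4 and 93.9 CPM in H2, with no overlap in either pair of bulks. Of the 28 genes at p under 0.05 on this scaffold, 27 had the same sign in H1 minus H2, and 16 of its 64 tested genes (25.0%) had p under 0.05 between H1 and H2, where the share over all genes was 3.04%.

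On NW_006239061.1, 35 of 109 tested genes (32.1%) had p under 0.05 and 8 were called by DESeq2, the most on any scaffold. LOC102605981, a metacaspase-3-like gene (metacaspases are cysteine proteases known from programmed cell death), had 5.06 and 4.29 CPM in L1, against 0.0614 and 0.152 CPM in L2. It had 2.61 and 3.21 CPM in H1, against 0.249 and 0 CPM in H2, so that high AGPaseS-a bulks were higher at both starch levels. LOC102594897, an uncharacterized gene, had 141 and 129 CPM in L1, against 48.1 and 28.6 CPM in L2, and it overlaps the gene LOC102594575 on the other strand, from which it may not be told apart. The 1 gene of the 8 that was lower in L1 was LOC102584416, a methylmalonate-semialdehyde dehydrogenase of amino acid breakdown, with 0.974 and 0.24 CPM in L1, against 5.95 and 5.7 CPM in L2. LOC102586172, for the chlorophyll-binding protein CP24, had 74.6 and 28.9 CPM in L1, against 14.4 and 19.6 CPM in L2. On this scaffold 22 of the 35 genes at p under 0.05 had the same sign in H1 minus H2, near the 64.8% over all genes at this p.

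NW_006239031.1, the scaffold of PGCRURSE5, had 32 of 130 tested genes (24.6%) at p under 0.05 and 4 called by DESeq2. LOC102600491, annotated as 12S seed storage protein CRD-like on the same strand at bases 1175564 to 1177110, was chosen after its values were seen and had 178 and 217 CPM in L1, against 96.7 and 106 CPM in L2. Its H values were 68.4 and 79.9 CPM in H1 and 274 and 98.2 CPM in H2, so that, as for PGCRURSE5, the mean was higher in H2. Reads of these related genes could have been given to the wrong gene or left uncounted. LOC102598840, a BASS1-like sodium/metabolite cotransporter, had 15.6 and 19.7 CPM in L1, against 6.32 and 3.46 CPM in L2. LOC102600154, a germin-like protein 2-1 gene, had 2.36 and 3.5 CPM in L1, against 7.82 and 30 CPM in L2. Both overlap another gene on their own strand, and reads in the overlap may have been left uncounted. On this scaffold 21 of the 32 genes had the same sign in H1 minus H2, again near the 64.8% over all genes at p under 0.05.

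AGPS1 lay on NW_006239449.1, where 6 of 27 tested genes (22.2%) had p under 0.05 while AGPS1 itself did not. LOC102587142, a glycine-rich RNA-binding protein-like gene chosen after its values were seen, had 4740.4 and 4048 CPM in L1, against 2339 and 1924 CPM in L2. It had 8002 and 3181 CPM in H1, against 1561 and 3177 CPM in H2, where H1 replicate B was barely above H2 replicate B. LOC102592319, an uncharacterized gene, had 2.64 and 3.4 CPM in L1, against 0.92 and 0.576 CPM in L2. All 6 genes had the same sign in H1 minus H2.

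A scaffold outside these 12, NW_006238934.1, had 5 genes called by DESeq2, all higher in L2, although only 6.97% of its 287 tested genes had p under 0.05. LOC102582123, an RNF8 E3 ubiquitin ligase, had 5.97 and 4.9 CPM in L1, against 22.6 and 24.8 CPM in L2. LOC102603993 (WRKY transcription factor 44) had 0.848 and 1.34 CPM in L1, against 5.92 and 6.25 CPM in L2. LOC102596035, a glucomannan mannosyltransferase of the cell wall, had 1.01 and 3.22 CPM in L1, against 10.5 and 13.1 CPM in L2. LOC102604654, a REVEILLE 8-like gene of the plant clock, had 5.41 and 4.6 CPM in L1, against 12.3 and 16.9 CPM in L2. LOC107060868, a receptor-like kinase, had 0 counts in both L1 libraries and 39 and 90 counts in L2, at least 19.9-fold higher in L2 against the floor of 3 counts per L1 library.

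The high starch bulks share no library with L1 and L2. Of the 71 genes called by DESeq2, 52 (73.2%) had the same sign in H1 minus H2, against 52.9% of all tested genes, with 46 to 56 when 1 H library was left out. On the 12 scaffolds the count was 22 of 25 (88.0%) and elsewhere 30 of 46 (65.2%). For genes at p under 0.05, it was 702 of 1083 (64.8%) in all, 181 of 225 (80.4%) on the 12 scaffolds and 521 of 858 (60.7%) elsewhere. Not every scaffold of the 12 had a majority, and on NW_006239080.1 it was 2 of 7. Of the 25 called genes on these scaffolds, 17 (68.0%) had non-overlapping H bulks in the same direction and 1 (4.0%) in the opposite direction. Of the 46 called genes elsewhere, 11 (23.9%) and 2 (4.35%) did. Over all tested genes the shares were 12.4% in the same and 9.36% in the opposite direction, or 21.8% in either. No gene was called between H1 and H2 by edgeR in the fit of all 8 libraries, where 619 of 20389 (3.04%) had an unadjusted p under 0.05 and the lowest FDR was 0.502. DESeq2 was not run on that pair.

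**Figure D4:**
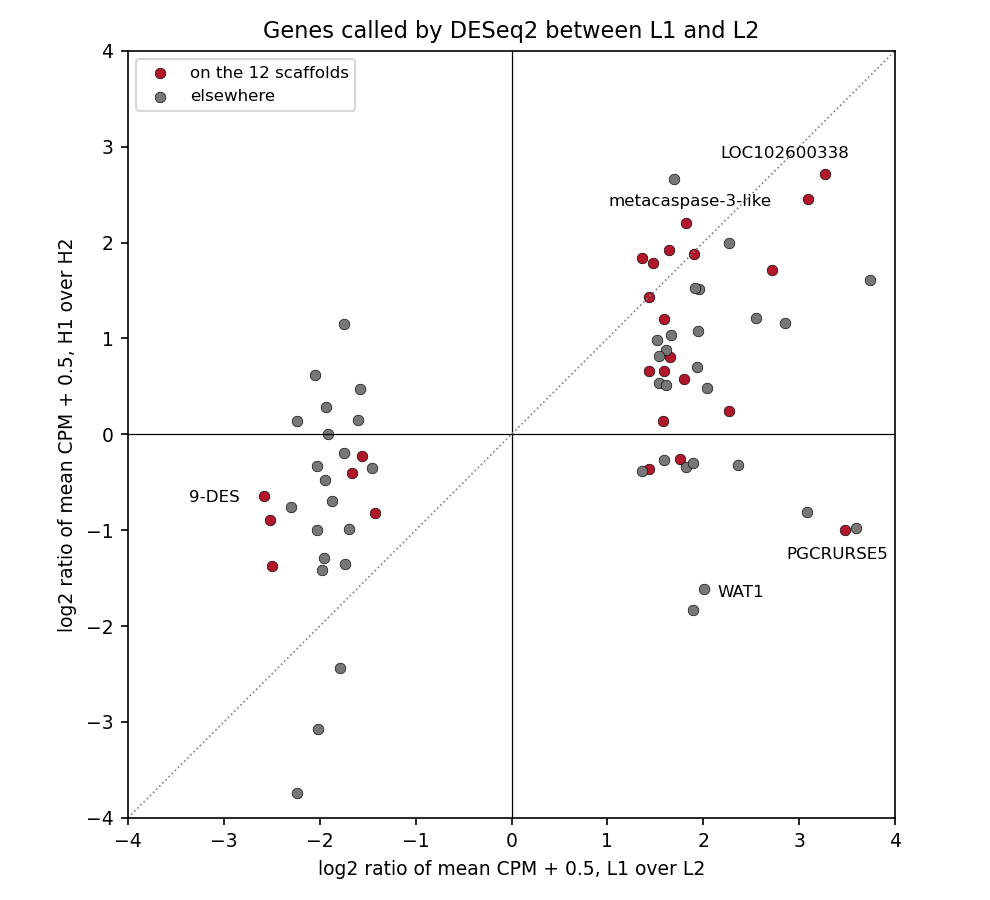
Log2 ratio of mean CPM + 0.5 of H1 over H2 (vertical) against that of L1 over L2 (horizontal) for the 71 genes called by DESeq2 between L1 and L2, with the 25 genes on the 12 scaffolds in red. Most red points lie in the lower left and upper right, and PGCRURSE5 is a red point with the opposite sign in the high starch bulks.

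The median absolute difference between A and B, in log2(CPM + 2), was 0.206 in L1 and 0.187 in L2, against 0.459 in H1 and 0.374 in H2. The correlation of log2(CPM + 2) was 0.981 between the L1 libraries and 0.9821 between the L2 libraries, and 0.9784 to 0.9816 between L1 and L2 libraries, so that the L1 libraries were no closer to each other than L1 replicate B was to L2 replicate A. In the interaction of AGPaseS-a class and starch level, fitted on all 8 libraries, edgeR called 0 of 20389 genes (0%), with 321 (1.57%) at an unadjusted p under 0.05. Leaving out 1 library moved that count widely, to 528 without library A and 2270 without library B of H1, to 801 without A and 541 without B of H2, to 204 without A of L1 and to 193 without B of L2. DESeq2 called 6 genes.

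Gene groups were read against the shares over all tested genes, 2.70% higher in L1 and 2.83% higher in L2 at p under 0.05. The starch lists were set by words in product names. Of 24 tested genes in the synthesis list, 3 (12.5%) had p under 0.05, all higher in L1. Of 21 in the breakdown list 1 (4.76%) did, also higher in L1. The median log2 difference was 0.03 and 0.04. LOC102577824, isoamylase isoform 3, had 263 and 286 CPM in L1, against 195 and 179 CPM in L2. It is a debranching enzyme, and debranching is also a step of starch breakdown, but only the synthesis list held it. The counts of these lists thus do not separate synthesis from breakdown cleanly. LOC102584892, the plastidic ATP/ADP transporter that supplies ATP to AGPase, had 60.9 and 60.4 CPM in L1, against 46.9 and 40.6 CPM in L2. LOC102604259, a glucose-6-phosphate/phosphate translocator 2-like gene of a family that carries hexose phosphate into plastids, had 0.66 and 3.19 CPM in L1, against 0.337 and 0.485 CPM in L2. Its log2 difference of 2.22 ± 0.88 was the only one of the 3 above 1.5, and it was 0.68 without L1 replicate B, which held most of its reads. The 3 genes were chosen after their values were seen, and DESeq2 called none of them.

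**Figure D5:**
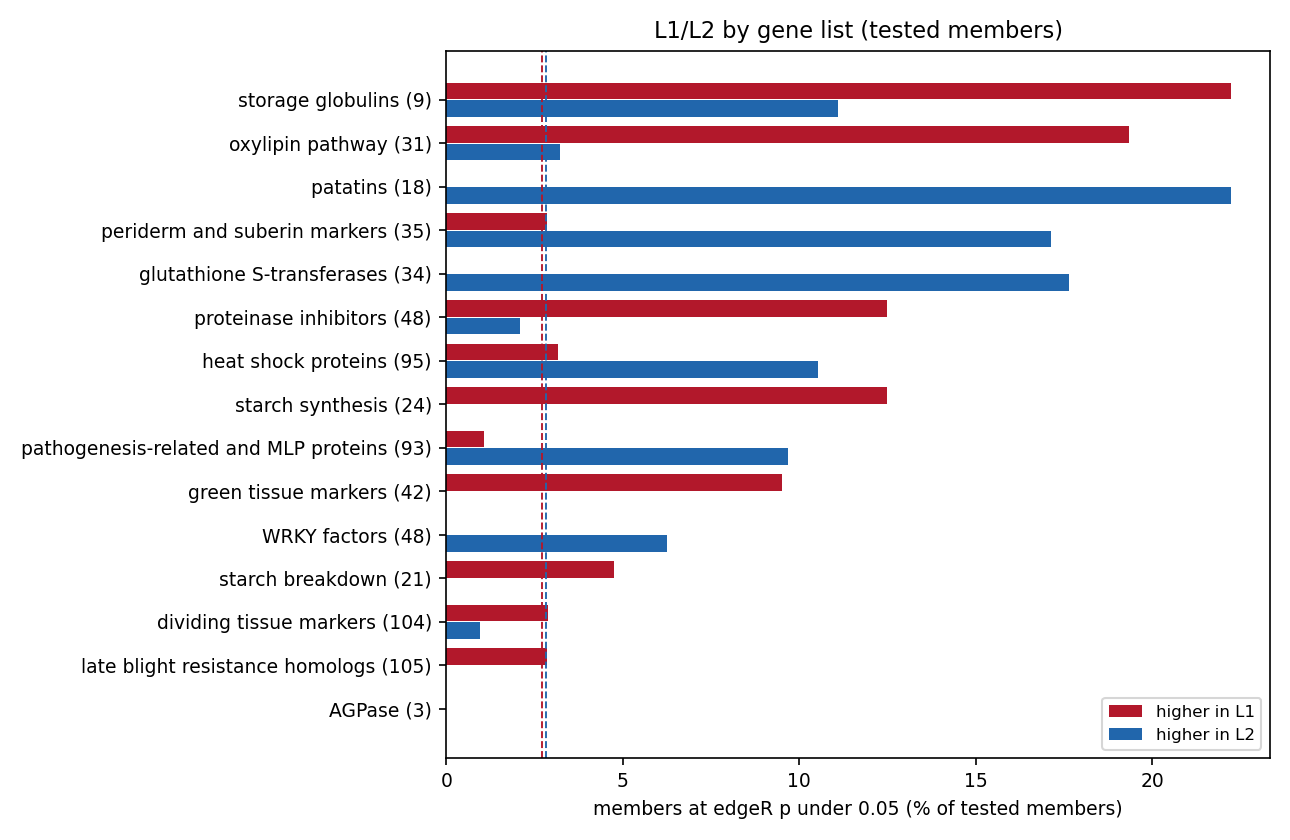
Percentage of the tested members of 15 gene lists (numbers in brackets) at an edgeR p under 0.05, higher in L1 (red) or higher in L2 (blue), with dashed lines at 2.70% and 2.83% over all tested genes. Oxylipin genes and proteinase inhibitors lie towards L1, and patatins, glutathione S-transferases and periderm markers towards L2. Of 9 tested storage globulins, 2 at this p were higher in L1 and 1 higher in L2, and the list median was 0.17 on the log2 scale. Several lists hold few genes.

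Storage and defence genes differed in both directions. Of 18 tested patatin genes, 4 had p under 0.05, all higher in L2, with a list median of -0.77 on the log2 scale. LOC102602048, a patatin-T5-like gene chosen after its values were seen, had 827 and 1289 CPM in L1, against 2229.8 and 1876 CPM in L2. Patatin genes are near copies, so that reads may have been given to the wrong copy or left uncounted. Of 48 proteinase inhibitor genes, 7 had p under 0.05, 6 of them higher in L1. Over this list the median log2 difference was 0.16, with 29 positive and 19 negative. Its summed level was 36840 and 29360 CPM in L1, against 32480 and 30520 CPM in L2, which overlapped. LOC102593917, cysteine protease inhibitor 9-like, had 6.82 and 18.2 CPM in L1, against 0.614 and 0.546 CPM in L2, and LOC102598390, wound-induced proteinase inhibitor 2-like, had 2.33 and 0.789 CPM in L1, against 0.0307 and 0.0606 CPM in L2. LOC102594586, cysteine protease inhibitor 1-like, ran the other way, with 96.9 and 103 CPM in L1, against 164 and 197 CPM in L2. The multicystatin-like gene LOC107063353, which the list did not hold, had 26.8 and 5.18 CPM in L1, against 1.07 and 0.394 CPM in L2. In the H bulks LOC102593917, LOC102598390 and LOC107063353 all overlapped between H1 and H2.

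Oxylipins are made from fatty acids by lipoxygenases and give jasmonates through allene oxide synthase and divinyl ethers through 9-DES. Of 31 tested genes of this pathway, 7 had p under 0.05, 6 higher in L1 and 9-DES higher in L2. LOC102598541, a 9S-lipoxygenase 8-like gene, had the highest CPM of the genes called by DESeq2, on a scale not divided by length, with 4337 and 3026 CPM in L1, against 1811 and 731 CPM in L2. LOC102602192, a 9S-lipoxygenase 2-like gene, had 3699 and 5165 CPM in L1, against 2708 and 2049 CPM in L2, and LOC102589003, allene oxide synthase, had 5.19 and 14.6 CPM in L1, against 1.84 and 3.34 CPM in L2. Both were chosen after their values were seen. LOC102596122, a 13S-lipoxygenase 2-1 gene, was called by DESeq2 at low level, with 1.41 and 2.64 CPM in L1, against 0.276 and 0.0303 CPM in L2. LOC102598541 overlaps an annotated gene on the same strand and LOC102596122 one on the other strand. Reads in these overlaps may have been left uncounted. LOC102598541 was also higher in H1, with 9606 and 7288 CPM, against 4783 and 4778 CPM in H2.

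Of 95 heat shock genes, 13 had p under 0.05, 10 higher in L2, while the median log2 difference over the list was -0.08, with 40 genes positive and 55 negative, and the 3 called by DESeq2 were small heat shock proteins, chaperones that hold unfolded proteins. LOC102584503, the chloroplastic small heat shock protein, had 32.7 and 19.3 CPM in L1, against 139 and 68.6 CPM in L2. LOC102603518, a 22.7 kDa class IV protein, had 16.1 and 13.4 CPM in L1, against 57 and 34.5 CPM in L2, and LOC102578786, a 17.6 kDa class I protein, had 2.64 and 9.47 CPM in L1, against 29.8 and 19.6 CPM in L2. LOC102577597, the chaperone ClpB1, chosen after its values were seen, had 754 and 687 CPM in L1, against 481 and 484 CPM in L2. Of 93 pathogenesis-related and MLP genes, 10 had p under 0.05 and 9 of these were higher in L2. PR-5/319, a pathogenesis-related protein, had 0.786 and 0.995 CPM in L1, against 1.87 and 10.2 CPM in L2, a difference carried mostly by L2 replicate B.

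Of 34 glutathione S-transferase genes, which couple glutathione to reactive compounds, 6 had p under 0.05, all higher in L2, and LOC102600687, chosen after its values were seen, had 7.16 and 12.7 CPM in L1, against 27.5 and 21.4 CPM in L2. Of 48 WRKY genes, transcription factors of stress responses, 23 had non-overlapping bulks with L2 above L1 and 2 with L1 above L2, where 17.9% and 17.2% of all tested genes did, although only 3 had p under 0.05. Of 105 late blight resistance homologs, 3 had p under 0.05, all higher in L1 and all with a log2 difference above 1.5, a share of 2.86% beside 5.53% of all genes by p and 1.27% by p and fold. Their bulks did not overlap with L1 above L2 for 23 and with L2 above L1 for 10.

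Further genes called by DESeq2 were scattered over other functions. In L1, LOC102602364, a cytochrome P450 87A3-like gene, had 5.25 and 4.29 CPM, against 0.0614 and 0.182 CPM in L2, and LOC102602267, a probable peroxygenase 5, had 23 and 39.9 CPM in L1, against 7.58 and 4.64 CPM in L2. LOC102594099, an arabinogalactan protein of the cell wall, had 22.9 and 16.5 CPM in L1, against 4.94 and 4.82 CPM in L2. LOC102600938, a tropinone reductase homolog, had 300.3 and 297 CPM in L1, against 119.6 and 40.6 CPM in L2. Higher in L2 was LOC102581615, a homolog of SULFUR DEFICIENCY-INDUCED 1, which in Arabidopsis responds to sulfur supply, with 7.2 and 6.21 CPM in L1, against 31.6 and 23.1 CPM in L2. LOC102591302, a bZIP transcription factor 53-like gene, had 12.5 and 14.8 CPM in L1, against 52.5 and 29.7 CPM in L2, and it overlaps an annotated gene on the same strand. All of these were separated between bulks in every library. Among product families, 29 of 592 with at least 5 tested members held a gene called by DESeq2, 2 held at least 2 and 0 held at least 3. DESeq2 called 0.36% of all genes with an adjusted p, and large families hold many genes, such as 118 tested in the cytochrome P450 family with 1 called.

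Markers of other tissue were compared, and their part in the results was not tested. Of 42 tested green tissue markers, of 60 annotated, 4 had p under 0.05, all higher in L1, and their summed level was 801 and 478 CPM in L1, against 431 and 581 CPM in L2, which overlapped. Over this list, 34 of the 42 log2 differences were positive and the median was 0.58, where it was -0.01 over all tested genes. In the green list, and likewise in the periderm list, 1 marker had 0 counts in all 4 libraries. Of 35 tested periderm and suberin markers, of 51 annotated, 7 had p under 0.05, 6 higher in L2, and their summed level was 426 and 437 CPM in L1, against 561 and 469.8 CPM in L2. Over this list, 26 of the 35 log2 differences were negative and the median was -0.34. The 1 periderm marker at p under 0.05 that was higher in L1 was LOC102594285 (ECERIFERUM 3-like), with a log2 difference of 1.93. It was also the only member of that list called by DESeq2. LOC102577568 (CYP86A33), a fatty acid hydroxylase of suberin chosen after its values were seen, had 8.45 and 15.9 CPM in L1, against 24.4 and 26.1 CPM in L2. DESeq2 did not call LOC102577568. Of 104 tested markers of dividing tissue, 4 had p under 0.05, and their summed level was 3893 and 3341 CPM in L1, against 3683 and 3546 CPM in L2. In bulk tissue, fewer cells of a type and less RNA per cell cannot be told apart. The tuber markers themselves were abundant, with summed patatin levels of 15050 and 14460 CPM in L1, against 18860 and 13480 CPM in L2.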

How the data were processed

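The deposited counts are the authors' read counts per gene: per the study's methods and the submitters' processing notes, reads were aligned with TopHat2 2.0.9 and Bowtie2 2.1.0, counted with HTSeq and compared with DESeq2, and the strand setting of the counting was not stated, although the library kit was directional. In the tables, 2 columns of per-sample values matched no sample and were not used. The authors' comparison columns (fold change, p-value, FDR) were not used, only the annotation. Libraries were grouped by their trait labels. Of 32768 genes, 19671 passed filterByExpr and were fitted with edgeR 4.0.16 (quasi-likelihood test, TMM, Benjamini-Hochberg; FDR under 0.05 and absolute log2 fold change of at least 1.5) on the 4 low starch libraries, while H1/H2 and the interaction came from 1 fit of all 8 libraries. DESeq2 1.42.0, other scalings and filters, and leaving out each library were alternatives. Named genes were the AGPase genes and tubulins, the study's candidates, called genes with the largest fold change or highest CPM, and leading called genes of lists, families, scaffolds and the interaction. Because edgeR called 0 genes, genes called by DESeq2 were used there. Members and lists were chosen with earlier results of these data known. The scripts were tested on simulated data.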

Additional observations from a re-analysis of the deposited data

Results flagged for a closer look

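For 6 genes the difference between high and low AGPaseS-a bulks differed between low and high starch tubers in DESeq2's test of the interaction, (L1 minus L2) minus (H1 minus H2), whereas edgeR called 0 genes. Its unadjusted p was under 0.05 for 321 genes, and for 193 to 2270 when 1 library was left out. LOC102602364 (cytochrome P450 87A3-like) had an interaction of 6.40 ± 1.24 on the log2 scale (SE; DESeq2 adjusted p = 0.00318), with the L1 libraries far above L2 and overlapping H bulks of 1.27 and 0.652 CPM in H1, against 0.994 and 3.12 CPM in H2. LOC102601158 (PGCRURSE5) had 4.55 ± 0.912 (DESeq2 adjusted p = 0.0051). LOC102603993 (WRKY transcription factor 44) had -3.16 ± 0.719 (DESeq2 adjusted p = 0.0463), with 7.83 and 6.75 CPM in H1, against 5.93 and 3.21 CPM in H2.

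LOC102596717, an isoflavone reductase-like candidate, had -3.68 ± 0.684 (DESeq2 adjusted p = 0.00189), with 6.94 and 14.7 CPM in L1, against 20.3 and 10.9 CPM in L2, and with 48.2 and 57.9 CPM in H1, against 7.03 and 5 CPM in H2. LOC102579901, a gene without a product name, had -4.71 ± 1.05 (DESeq2 adjusted p = 0.0418), with 2.64 and 2.57 CPM in L1, against 3.44 and 2.76 CPM in L2, and with 4.27 and 2.33 CPM in H1, against 0.249 and 0.0428 CPM in H2. LOC102585554, a premnaspirodiene oxygenase-like gene, had a fitted -10.73 (DESeq2 adjusted p = 0.0418), which is no measure of size because both H2 libraries had 0 counts. It had 3 and 15 counts in L1, against 22 and 200 counts in L2, and 23 and 8 counts in H1, so that L2 replicate B held most of its reads.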

How the results depend on the processing

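The number of genes called between L1 and L2 was 0 by edgeR with all 8 libraries, with RLE factors, with library totals, with at least 50 counts, with FDR alone and with a linear fold change of 1.5. It was 2 with no filter on low counts, 71 with DESeq2, 12 with DESeq2 and a normal prior and 250 with the unadjusted p, and 0 to 3 when 1 library was left out, with 3 without L1 replicate A. Replicate letters did not pair the libraries (correlation of their deviations -0.0523), and the fit with the replicate block called 0 genes, with 1104 at p under 0.05. The alternatives that follow were chosen after seeing the data. The 1088 genes at p under 0.05 became 345 with all 8 libraries and 906 to 1473 when 1 library was left out, and the 226 on the 12 scaffolds became 126 and 145 to 199. DESeq2 called 75 to 110 genes when 1 library was left out. By DESeq2, 4 scaffolds held at least 3 called genes, against 0 by edgeR, and the interaction had 6 against 0. The 321 genes at p under 0.05 in the interaction became 507 with DESeq2, 223 with the replicate block and 193 to 2270 when 1 library was left out. The cause of these changes was not tested. Of 10 named genes with no call, the sign of the log2 difference turned when 1 library was left out, with a range of -0.79 to 0.20 for LOC102577790, -1.56 to 0.79 for LOC102579204 (and -0.34 with the replicate block), -0.27 to 0.93 for LOC102580754, -0.86 to 0.16 for LOC102584283, -0.37 to 2.62 for LOC102591902, -0.45 to 0.72 for LOC102593485, -0.34 to 0.68 for LOC102596467, -1.17 to 0.00 for LOC102596717, -0.61 to 0.30 for LOC102604019 and -0.38 to 2.44 for LOC107059838. With 2 libraries in each bulk, and each a pool of 6 plants, the spread between single plants was not measured.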

Other observations

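Further genes called by DESeq2 belonged to none of the groups above. LOC102601381, a gene without a product name, had 983 and 633 CPM in L1, against 358 and 170 CPM in L2. LOC102577836, an apyrase-like gene for an enzyme that cleaves extracellular nucleotides, had 18.8 and 27.8 CPM in L1, against 2.48 and 8.97 CPM in L2. LOC102585516, a gibberellin 3-beta-dioxygenase 1-like gene of hormone activation, had 4.43 and 7.13 CPM in L1, against 1.47 and 1.49 CPM in L2. Each was higher in both L1 libraries, and LOC102577836 and LOC102585516 overlapped between H1 and H2.

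Among the genes higher in L2, LOC102606020, a chloroplastic fructose-bisphosphate aldolase of carbon metabolism, had 15.2 and 27.5 CPM in L1, against 42.7 and 102 CPM in L2. LOC102589950, a type 2 metallothionein-like gene, had 11.9 and 5.21 CPM in L1, against 30.2 and 35.2 CPM in L2. PME1, a pectin methyl esterase of the cell wall, had 0.817 and 0.686 CPM in L1, against 3.83 and 4.76 CPM in L2. LOC102580622, a bax inhibitor 1-like gene, had 0.0314 and 0.137 CPM in L1, against 1.38 and 2.03 CPM in L2, and 0 counts in all 4 H libraries.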
